A study of Mus musculus with 3 samples.

Results

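The ErbB receptors and the EGF-family ligands were examined in SB28, a mouse glioblastoma model cell line. The 10 genes were chosen by symbol from the 24421 gene lines of the count tables, 4 receptors (Egfr, Erbb2, Erbb3 and Erbb4) and 6 ligands (Egf, Tgfa, Hbegf, Areg, Ereg and Btc), and all 10 were found. The data are 3 RNA-seq libraries of 1 group, labelled as brain in source and C57BL/6 in genetic background. SB28 was derived from a brain tumour induced with transposon-borne oncogenes, and the labels give no treatment, passage, allele or comparison group. Separate cultures are not mentioned for the replicates, so every SD measures only the spread between these libraries, which may be technical. Every p-value likewise rests on these libraries only, and those of the chi-square test set them against counting error alone.

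ErbB receptors are tyrosine kinases that pair at the cell surface when a ligand binds and then start RAS-MAPK and PI3K signalling. The ligands are made as membrane proteins and are cut free by ADAM metalloproteases. Egfr binds Egf, Tgfa, Areg, Hbegf, Ereg and Btc, of which Hbegf, Ereg and Btc also bind Erbb4, while neuregulins bind Erbb3 and Erbb4. Erbb2 has no known ligand and acts as a partner for the other receptors, and Erbb3 has a weak kinase. EGFR is often amplified in human glioblastoma.

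The ligands share an EGF-like module with 6 cysteines that bind each other in pairs. The translated GENCODE M21 transcripts (GRCm38) were searched with a preset pattern of cysteine spacing. It fixed gaps of 7, 1 and 8 residues, set the second gap to 4 or 5, and allowed a range from 10 for the next. The pattern matched 1 module in each of the 6 ligands and in epigen (Epgn), a further Egfr ligand. Modules of other spacing, in Egf or elsewhere, would not be counted. In Tgfa, Hbegf, Areg, Ereg, Btc and Epgn the cysteines were separated by 7, 4, 10, 1 and 8 other residues, and in Egf the second gap was 5. The shared gaps of 7, 1 and 8 follow from the pattern and are not a result. The coding sequence of the module is shown for 4 ligand genes that neighbour each other on chromosome 5, whose levels are compared further on, and for Egf, whose spacing differs. Capitals mark the cysteine codons. In Ereg it lies at chr5:91088496-91089111, in Areg at chr5:91143614-91144364 and in Epgn at chr5:91031152-91032237, all on the plus strand. In Btc it lies at chr5:91362421-91366197 and in Egf at chr3:129686322-129690850, on the minus strand. Each module spans 2 coding exons and the intron between them, which is left out.
Ereg: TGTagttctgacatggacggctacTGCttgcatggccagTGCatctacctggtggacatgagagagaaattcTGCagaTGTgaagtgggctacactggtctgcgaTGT
Areg: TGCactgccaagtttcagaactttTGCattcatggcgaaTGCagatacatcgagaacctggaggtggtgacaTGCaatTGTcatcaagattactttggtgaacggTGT
Btc: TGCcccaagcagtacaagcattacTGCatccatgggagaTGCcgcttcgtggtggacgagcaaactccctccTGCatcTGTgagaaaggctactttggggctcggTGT
Epgn: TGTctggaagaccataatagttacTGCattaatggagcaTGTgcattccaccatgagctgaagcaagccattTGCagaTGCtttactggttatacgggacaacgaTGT
Egf: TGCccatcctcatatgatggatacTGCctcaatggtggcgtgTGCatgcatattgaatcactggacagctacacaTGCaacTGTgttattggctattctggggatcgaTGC

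Over the 15 pairs of the modules with 108 bases, 45.4% to 62.0% of bases were identical at the same place, and the longest identical run at the same place was 11 bases. All 10 genes are annotated as protein-coding. Exons of another gene overlapped those of Erbb2 (9 bases, Mien1), Egf (500 bases of 6330410L21Rik and 607 of Gm42697), Tgfa (118 bases, Gm43917) and Ereg (141 bases, Gm19610), each on the opposite strand. The sources used here give no strand setting or counting options, so it is not known whether the counts include reads of the partner from those stretches. Of these partners, Mien1 and 6330410L21Rik have gene lines of their own.

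The libraries held 28990128 to 36019009 counts assigned to genes. Replicates 1 and 2 were close, with 256 of 12746 genes (2.01%) differing beyond counting noise, while replicate 3 differed from them at 8191 of 12802 and 7963 of 12685 genes. Reads not assigned to a gene made up 15.2%, 15.2% and 17.1% of the listed reads in replicates 1, 2 and 3, and their part in any difference below was not tested. The labelled origin was checked against markers. Among glial and neural stem markers, Vim, Nes and Sox2 were detected, and Gfap and Olig2 had 0 counts. All 5 epithelial markers (Epcam, Cdh1, Krt5, Krt8 and Krt14) lay below 1 count per 1000000 (CPM) in every library with at most 14 counts in all, as did the leukocyte markers Ptprc (25 counts in all), Itgam (6) and Cd3e (0). Of the endothelial markers, Cdh5 was detected at 351 ± 42.2 CPM and Pecam1 had 6 counts.

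SB28 expressed Egfr and Erbb2 at levels per length below the median of detected genes, little Erbb3 and no measured Erbb4. Detection here means reaching 1 CPM in each of the 3 libraries. By that rule 7 of the 10 genes were detected (2 of 4 receptors and 5 of 6 ligands), against 46.6% of all gene lines. Levels of different genes are given per length, as CPM per kilobase of exon, with the mean ± SD of the 3 libraries and libraries in the order 1, 2, 3.

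Erbb2 (chromosome 11, 98412470 to 98437716, plus strand) was the highest receptor per length. It had 1284, 986 and 1003 counts, or 6.84, 6.53 and 5.90 CPM per kilobase (6.42 ± 0.480, n = 3), a level above 45.2% of detected genes. Egfr (chromosome 11, 16752203 to 16918158, plus strand) had 1727, 1370 and 1252 counts, or 4.23, 4.17 and 3.39 CPM per kilobase (3.93 ± 0.472), above 32.0% of detected genes. The 3 values of Erbb2 all lay above the 3 of Egfr, and replicate 3 was the lowest library for each. Within libraries Erbb2 was 1.64-fold higher than Egfr per length (range 1.56 to 1.74), more than the spread between replicates. The order depends on the length correction, since in plain CPM Egfr was the higher, at 44.5 ± 5.34 against 33.5 ± 2.501.

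Erbb3 (chromosome 10, 128567523 to 128589652, minus strand), the partner with the weak kinase, had 33, 19 and 7 counts. These equal 0.916, 0.655 and 0.215 CPM, or 0.152, 0.109 and 0.0357 CPM per kilobase, so the gene stayed below 1 CPM in every library. The pooled level was 0.604 CPM (95% exact binomial interval 0.46 to 0.779). Over the pooled libraries Erbb2 was 64.1-fold (49.5 to 84.3) and Egfr 39.2-fold (30.3 to 51.5) higher than Erbb3 per base, with intervals for counting error only. The spread between libraries was wider, since Erbb2 over Erbb3 was 73.7-fold on average within libraries with a range of 44.3 to 154, highest in replicate 3, and 50.9 to 95.001 on leaving out 1 library in turn. Erbb4 (chromosome 1, 68032186 to 69108059, minus strand), a neuregulin receptor of neurons and other tissues, had 0 counts in all 3 libraries. A count of 0 allows up to 0.0833, 0.103 and 0.0919 CPM (3 counts) in replicates 1, 2 and 3. With 3 counts over the pooled libraries set as the floor, Erbb2 was at least 2587-fold and Egfr at least 1581-fold higher than Erbb4 per base. Intervals and limits cover counting error only, since PCR copies are not independent molecules.

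**Figure D1:**
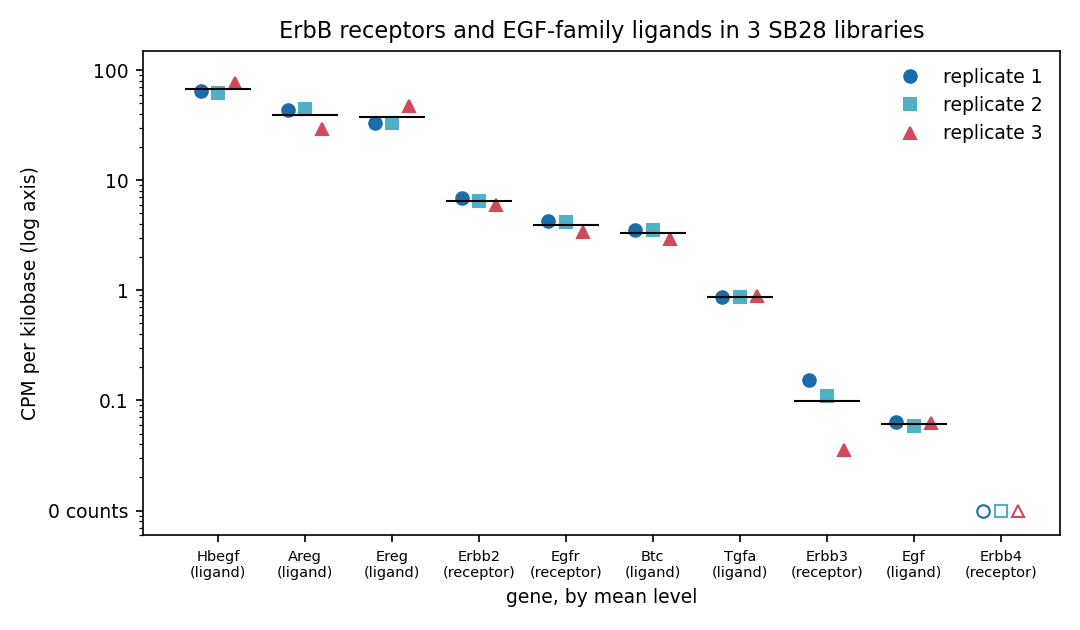
CPM per kilobase (log axis) of the 10 genes in each of the 3 libraries, ordered by mean level, with a line at the mean and open symbols for 0 counts. Hbegf, Areg and Ereg lie between 29.4 and 77.2, all above Erbb2 and Egfr, and Erbb4 has 0 counts.

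The ligands were led by Hbegf, Areg and Ereg, with Btc and Tgfa lower and Egf below 1 CPM. Hbegf, the heparin-binding ligand, had 11188, 8766 and 12179 counts, or 64.3, 62.6 and 77.2 CPM per kilobase (68.0 ± 8.01, n = 3). This lay above 94.5% of detected genes, with replicate 3 apart from the other libraries. Its annotation includes transcripts with retained introns, and with the longest transcript in place of all exons its level was 113.7 CPM per kilobase. Areg (chromosome 5, 91139599 to 91148432, plus strand), or amphiregulin, had 1912, 1562 and 1164 counts, or 43.7, 44.3 and 29.4 CPM per kilobase (39.1 ± 8.47). Replicate 3 was the low library here. Ereg (chromosome 5, 91074622 to 91093646, plus strand), or epiregulin, had 4916, 3976 and 6387 counts, or 33.1, 33.2 and 47.4 CPM per kilobase (37.9 ± 8.24), and replicate 3 was the high one. Areg and Ereg lay above 89.1% and 88.6% of detected genes.

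Btc (chromosome 5, 91357261 to 91402994, minus strand), or betacellulin, had 575, 467 and 428 counts, or 3.53, 3.56 and 2.90 CPM per kilobase (3.33 ± 0.373). Tgfa (chromosome 6, 86195223 to 86275719, plus strand), the gene for transforming growth factor alpha, had 205, 163 and 187 counts, or 0.877, 0.866 and 0.883 CPM per kilobase (0.875 ± 0.00841). Its 3 values were nearly equal and lay above 7.93% of detected genes. Egf itself (chromosome 3, 129677565 to 129755316, minus strand), the founding ligand, had 26, 19 and 23 counts, or 0.722, 0.655 and 0.705 CPM, with 0.0616 ± 0.00306 CPM per kilobase. With the longest transcript the Egf level was 0.146 CPM per kilobase, and some of its few reads may belong to the antisense genes that overlap its exons.

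Epgn, Ereg, Areg and Btc lie side by side within 375.5 kilobases of chromosome 5, yet their mean levels ran from 0.0341 CPM per kilobase for Epgn to 39.1 for Areg. The stretch runs from 91027464 to 91402994 and holds 5 gene lines of the tables, the fifth being Gm19619 with 22 counts in all. Epgn (91027464 to 91035215) had 1, 1 and 4 counts, while Ereg, whose gene begins 39.4 kilobases after Epgn ends, had at least 3976 in every library. Over the pooled libraries Ereg was 1115-fold (95% exact interval 512 to 3038), Areg 1150-fold (528 to 3134) and Btc 97.9-fold (44.9 to 267) higher than Epgn per base, with intervals that cover counting error only. Ereg and Areg are 45.95 kilobases apart. They differed in direction between libraries, Ereg being higher and Areg lower in replicate 3. Btc lies 208.8 kilobases beyond Areg on the other strand.

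**Figure D2:**
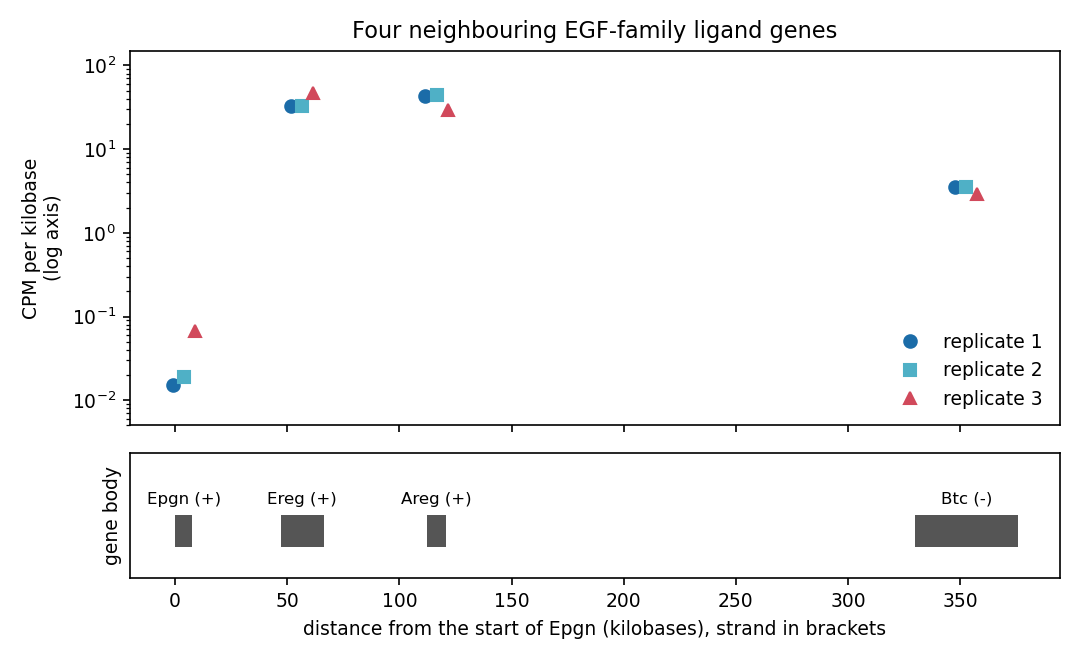
CPM per kilobase (log axis) of Epgn, Ereg, Areg and Btc in the 3 libraries above their gene bodies, drawn by distance in kilobases from the start of Epgn. Ereg and Areg lie at 29.4 to 47.4, Btc at 2.90 to 3.56 and Epgn, with 6 counts in all, at 0.0154 to 0.0678.

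Promoter sequence came from the RefSeq table (GRCm38.p6), which held an entry for 8 of the 11 genes (the members and Epgn). Areg, Btc and Egfr are shown because each was lower in replicate 3 than in the other libraries, a choice made after their values were seen. Erbb2 was lower there too, but its window runs into an annotated exon. The 250 bases before the start follow for Areg (chr5:91139349-91139598, plus strand), Btc (chr5:91402995-91403244, minus strand) and Egfr (chr11:16751953-16752202, plus strand). Capitals mark matches on either strand to 5 motifs. The letters searched were TGANTCA for AP-1, TGACGTCA for the cyclic AMP response element (CRE), GGGCGG for the GC box, TATAAA for the TATA box and CACGTG for the E-box.
Areg: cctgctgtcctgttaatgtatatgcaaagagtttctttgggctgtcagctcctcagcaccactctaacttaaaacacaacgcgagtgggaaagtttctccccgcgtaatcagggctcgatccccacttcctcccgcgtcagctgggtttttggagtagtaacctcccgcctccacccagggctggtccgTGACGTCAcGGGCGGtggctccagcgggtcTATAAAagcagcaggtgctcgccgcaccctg
Btc: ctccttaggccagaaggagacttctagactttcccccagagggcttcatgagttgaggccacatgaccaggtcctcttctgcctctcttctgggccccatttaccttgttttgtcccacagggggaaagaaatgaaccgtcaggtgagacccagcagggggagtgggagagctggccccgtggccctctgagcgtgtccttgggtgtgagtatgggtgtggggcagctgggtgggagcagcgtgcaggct
Egfr: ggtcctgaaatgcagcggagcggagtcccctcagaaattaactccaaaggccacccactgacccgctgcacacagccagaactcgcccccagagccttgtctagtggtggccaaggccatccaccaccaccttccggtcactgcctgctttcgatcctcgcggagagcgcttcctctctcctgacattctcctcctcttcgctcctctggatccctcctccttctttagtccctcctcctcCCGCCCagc

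The Areg window held 1 CRE, 1 GC box and 1 TATA box, which end 54, 47 and 26 bases before the start and do not overlap. Of 32851 promoter windows of the same length, 1.55% held the CRE, 32.7% the GC box and 12.4% the TATA box. The Egfr window held 1 GC box, on the minus strand, and the Btc window none of the 5 motifs. AP-1 and E-box letters, found in 6.75% and 6.02% of all windows, were in none of these 3. A match is a description of letters and not of a bound site.

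In order of mean level per length the genes ran Hbegf, Areg, Ereg, Erbb2, Egfr, Btc, Tgfa, Erbb3, Egf and Erbb4. Ratios within each library were taken for 15 pairs, the 10 chosen by symbol and the neighbours in this order, with 0.5 counts added to each count. A ratio was called larger than the spread when all 3 libraries lay on one side and the mean log2 ratio exceeded 2 SD, and 12 of 15 were. Neighbours were ordered by their means in these same libraries, which largely sets the direction of their ratios. Neighbours that did not pass were Hbegf and Areg, Areg and Ereg, and Erbb3 and Egf. Hbegf was 1.76-fold higher than Areg (1.41 to 2.63), higher in 3 of 3 libraries. The ratio passed at 1.44 without replicate 3, at 2.94 with the longest transcript and at 7.002 in plain CPM. Areg and Ereg were 1.03-fold apart (0.619 to 1.34), Areg being the higher in replicates 1 and 2 and Ereg in replicate 3. Without replicate 3, Areg was 1.33-fold higher and the ratio passed. In plain CPM the direction turned, with Ereg 3.298-fold higher than Areg (156 ± 34.0 against 47.5 ± 10.3), and that ratio passed too. Erbb3 against Egf was 1.38-fold (0.598 to 2.37), and without replicate 3 it was 2.11-fold and passed. No pair reached 0.05 in the exact two-sided sign-flip permutation test, whose smallest p with 3 libraries is 0.25.

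The remaining neighbours differed by more than the spread. Ereg was 5.82-fold higher than Erbb2 (4.83 to 8.03), Egfr 1.18-fold higher than Btc (1.17 to 1.198), Btc 3.78-fold higher than Tgfa (3.28 to 4.11) and Tgfa 10.1-fold higher than Erbb3 (5.69 to 23.2). Hbegf was 77.1-fold higher than Tgfa (71.99 to 87.2) and 17.3-fold higher than Egfr (14.99 to 22.8). Each of these ratios kept one direction in 3 of 3 libraries. Some sizes depend on the length used: in plain CPM Egfr was 2.95-fold higher than Btc and Hbegf 7.39-fold higher than Egfr, and with the longest transcript Hbegf was 26.1-fold higher than Egfr. Without replicate 3, Tgfa was 6.65-fold higher than Erbb3. All 12 passing pairs had an exact permutation p of 0.25, or 0.288 after Benjamini-Hochberg adjustment over the 15 pairs.

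Summed per length, the 6 ligands reached 145, 145 and 158 CPM per kilobase and the 4 receptors 11.2, 10.8 and 9.32, a ratio of 14.4 ± 2.18 (n = 3). Hbegf made up 44.2%, 43.3% and 48.9% of the ligand sum. Areg made up 30.03%, 30.7% and 18.6%, and Ereg 22.7%, 22.97% and 30.04%, so Areg and Ereg changed places between replicates 1 and 2 and replicate 3. Btc held 2.24% ± 0.351, Tgfa 0.587% ± 0.024 and Egf 0.0413% ± 0.00239. Among receptors, Erbb2 held 61.5% ± 1.53, Egfr 37.5% ± 1.14 and Erbb3 0.916% ± 0.493. In plain CPM the ratio of the sums was 7.16 ± 1.597, and with the longest transcript 17.8 ± 2.98.

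**Figure D3:**
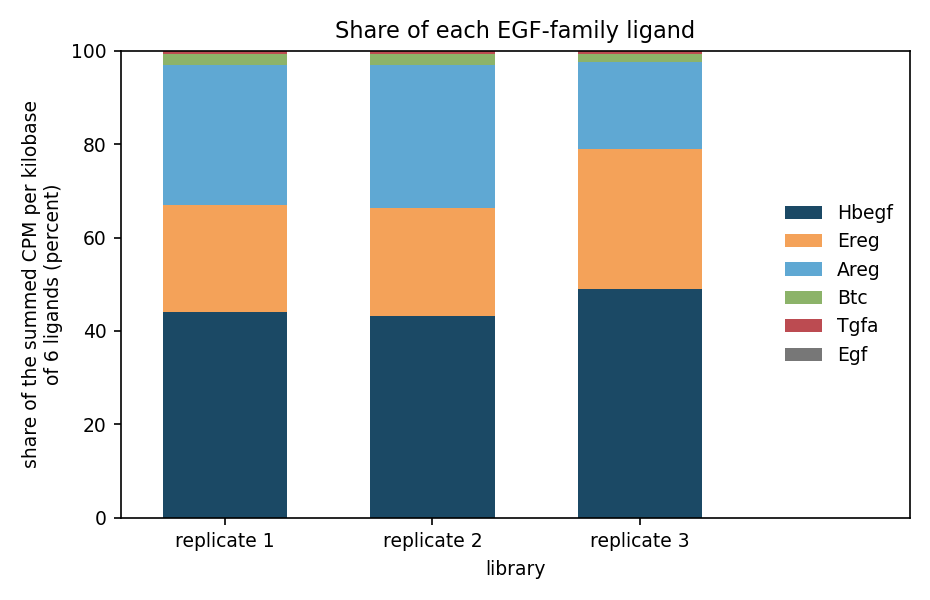
Share of each of 6 ligands, in percent, in the summed CPM per kilobase of each library. Hbegf is the largest part of every bar (43.3% to 48.9%), Areg is second in replicates 1 and 2, and Ereg is second in replicate 3.

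Replicate 3 had more Hbegf and Ereg and less Areg, Egfr, Btc, Erbb2 and Erbb3 than the other libraries, while Tgfa and Egf stayed within counting noise. A chi-square test of the 3 counts after TMM scaling, adjusted by Benjamini-Hochberg over 12737 genes, passed 7 of 9 tested members, against 65.7% of all tested genes. Erbb4 had no counts and was not tested. Of the 7 members that passed, 5 were lowest in replicate 3 and 2 highest. Of all 8369 genes that passed, 4007 were lowest there and 4215 highest (31.5% and 33.1% of the 12737 tested). The test sets the libraries against counting error alone and bears on no condition.

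Ereg was 1.44-fold higher in replicate 3 than in replicates 1 and 2 together (95% exact interval 1.39 to 1.49, adjusted p = 9.72e-108). Hbegf was 1.22-fold higher (1.196 to 1.25, adjusted p = 2.1e-67). Areg stood at 0.672-fold (0.628 to 0.718, adjusted p = 2.94e-30), the lowest value among the well-counted members. Egfr stood at 0.81-fold (0.758 to 0.866, adjusted p = 7.38e-09), Btc at 0.823-fold (0.734 to 0.922, adjusted p = 0.00574) and Erbb2 at 0.886-fold (0.822 to 0.955, adjusted p = 0.00536). Erbb3, with 7 counts in that library, stood at 0.27-fold with a wide interval (0.103 to 0.596, adjusted p = 0.00177). These intervals cover counting error only. Tgfa stood at 1.02-fold (0.85 to 1.22, adjusted p = 0.975) and Egf at 1.02-fold (0.592 to 1.73, adjusted p = 0.955). For all 9 members the direction was the same with total counts, TMM and DESeq2 size factors. Without replicate 3 the chi-square test passed 0 of 9 members after adjustment, beside 2.01% of all tested genes. At an unadjusted p under 0.05 it passed 1 of 9, beside 12.5% of all tested genes.

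**Figure D4:**
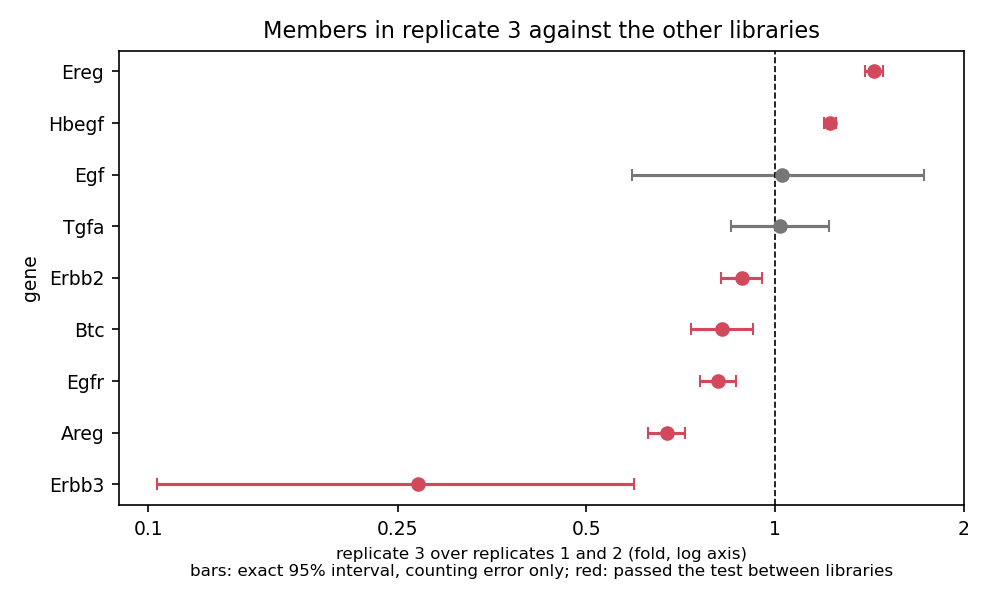
Fold of replicate 3 over replicates 1 and 2 together (log axis) for 9 members after TMM scaling, with exact 95% intervals for counting error and genes that passed the test between libraries in red. Ereg (1.44) and Hbegf (1.22) lie above 1, 5 genes lie below it, and the intervals of Tgfa and Egf include it.

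Of 56 related genes in 5 lists, 51 were detected (46.6% of all gene lines were). The median over all 56 was 11.7 CPM per kilobase and over the 10 members 3.63, with undetected genes included. The like median over all 24000 genes with a length was 0.227, and over the detected ones alone 7.58. Between libraries 35 of the 52 related genes tested differed, a share near the 65.7% of all genes tested.

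Among 5 further ligands, 2 were detected. Nrg2, a neuregulin, had 807, 683 and 981 counts, or 7.14, 7.51 and 9.58 CPM per kilobase (8.07 ± 1.32), each value above the 3 of Erbb2. In plain CPM the order turned, with Nrg2 at 22.4, 23.6 and 30.1 and Erbb2 at 35.6, 34.0 and 30.7. This comparison was not among the pairs chosen by symbol. Nrg1, the ligand best known for Erbb3 and Erbb4, had 100, 81 and 80 counts, or 0.258 ± 0.0186 CPM per kilobase, and Hbegf was 261-fold higher (230.3 to 324), or 122-fold in plain CPM. Nrg3 and Nrg4 had 0 counts. Exons of Nrg1 share 482 bases with Gm26578 on the opposite strand.

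All 12 shedding genes were detected, with a median of 14.6 CPM per kilobase. Adam9 (109.8 ± 0.401), Adam10 (40.9 ± 4.44), the metalloprotease inhibitor Timp3 (25.1 ± 7.94) and Adam15 (19.8 ± 1.48) were highest. Adam10, known to cut Btc and Egf precursors, was 3.65-fold higher per length than Adam17 (11.2 ± 0.599), known to cut those of Hbegf, Areg, Tgfa and Ereg (range 3.41 to 3.79). The size depends on the length used, since Adam10 was 2.44-fold higher with the longest transcript and 2.50-fold higher in plain CPM. The iRhom genes, whose products carry Adam17 to the surface, stood at 13.4 ± 0.22 for Rhbdf1 and 4.37, 3.68 and 2.17 for Rhbdf2, with Rhbdf1 4.09-fold higher (3.11 to 6.11). Of the 12 shedding genes, 9 differed between libraries (65.7% of all tested genes did), 7 of them lowest in replicate 3 and 2 highest. Of all 8369 genes that differed, 4007 were lowest and 4215 highest in replicate 3. Timp3 stood there at 0.54-fold (0.522 to 0.559, adjusted chi-square p = 8.84e-282) and Rhbdf2 at 0.538-fold (0.479 to 0.603, adjusted p = 4.51e-28).

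All 16 adaptors and relays were detected, with a median of 9.62 CPM per kilobase. The adaptor Shc1 (61.3 ± 7.02), the adaptor Crk (47.8 ± 2.296), the kinase Src (40.4 ± 2.96) and the phosphatase Ptpn11 (38.7 ± 1.34) led them. Of the 16, 10 differed between libraries, against 65.7% of all tested genes. Of those 10, 5 were lowest in replicate 3 and 5 highest, beside 4007 and 4215 of the 8369 genes that differed.

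All 16 negative regulators and trafficking genes were detected, with a median of 13.1 CPM per kilobase. Errfi1, a feedback inhibitor that binds the ErbB kinase, stood at 128, 128 and 87.1 CPM per kilobase and was higher than every member in each library when levels are taken over all annotated exons. In plain CPM this did not hold in replicate 3, where Errfi1 stood at 312 and Hbegf at 373. The SOCS protein gene Socs5 (48.3 ± 0.972), Lrig1 (39.4 ± 1.402), which promotes receptor breakdown, and Hgs (35.2 ± 1.55), of the endosomal sorting machinery, followed Errfi1 in this list. Errfi1 was 2.86-fold higher than Lrig1 (2.31 to 3.19), more than the spread, and 1.83-fold in plain CPM. Errfi1 stood at 0.685-fold in replicate 3 (0.669 to 0.7, adjusted chi-square p = 4.31e-238), beside 0.81-fold for Egfr. Of the 16, 11 differed between libraries, beside 65.7% of all tested genes. Of those 11, 8 were lowest in replicate 3 and 3 highest, beside 4007 and 4215 of the 8369 genes that differed.

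Of 7 membrane partners, 5 were detected. Cd9 (149.9 ± 8.07 CPM per kilobase), a tetraspanin that binds the Hbegf precursor, Cd44 (128 ± 11.1), the syndecan Sdc4 (120.1 ± 22.96) and the caveolin Cav1 (74.2 ± 1.21) were highest. The epithelial mucin Muc4, a partner of Erbb2, had 4 counts, and Muc1 lay around the threshold (1.17, 0.966 and 0.858 CPM), a gene named after its values were seen.

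**Figure D5:**
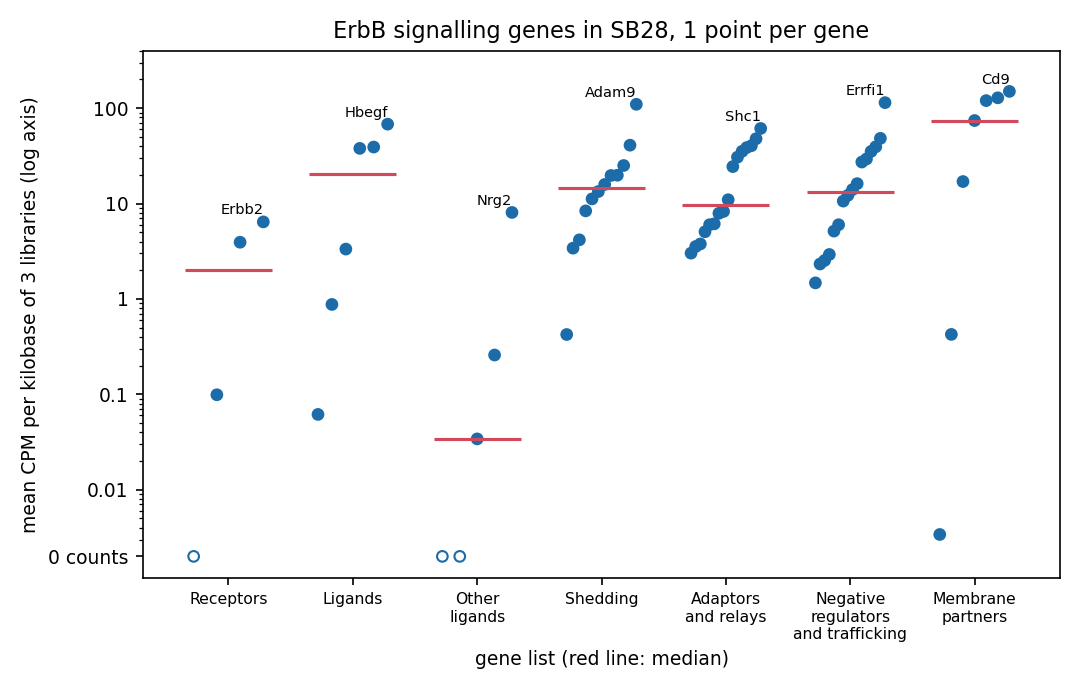
Mean CPM per kilobase (log axis) of each gene in the receptor and ligand lists and 5 related lists, with the median in red and open circles for 0 counts. Shedding genes, adaptors and negative regulators have medians of 9.62 to 14.6, against 2.02 for the receptors and 20.6 for the ligands.

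The genes nearest in level to Erbb2, by the root mean square difference of log2 CPM per kilobase over the 3 libraries among 12644 others, were Sema4b (0.0178), Dusp10 (0.0204) and Gramd1a (0.0211). Sema4b, a semaphorin gene, stood at 6.88, 6.66 and 5.87 CPM per kilobase. The genes nearest to Hbegf were Ipo5 (0.0171), Cyc1 (0.0321) and Prmt1 (0.0362), and Ipo5, an importin gene, stood at 63.8, 62.7 and 78.7. With 3 libraries such likeness describes level only.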

How the data were processed

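RNA was measured by sequencing in 3 SB28 libraries made, per the labels' protocols, from total RNA with a TruSeq kit. The authors deposited raw counts per gene symbol, 1 table per library. Bowtie2 2.2.4, HTSeq and mm10 appear in the submitters' processing notes, with no roles, options or HTSeq version, and the strand setting is not given in the sources used here. Summary lines for unassigned reads (15.2% to 17.1%) were left out of library sizes.

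Symbols were matched to GENCODE M21 (GRCm38, the assembly of mm10), 23350 directly and 650 by RefSeq synonym, and 421 were unmatched. Lengths are union exon lengths, and all 10 members, 56 related genes and 15 markers had one. Erbin was found under an older symbol. Promoter windows come from RefSeq GRCm38.p6, module sequences from GENCODE.

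Counts were scaled to CPM and CPM per kilobase. With 1 group no test between conditions was possible. Within-library pair ratios used an exact sign-flip permutation test, and differences between libraries a chi-square test with 2 degrees of freedom wherever the mean count reached 10, after TMM scaling (edgeR 4.0.16), with Benjamini-Hochberg adjustment at 0.05. DESeq2 1.42.0 size factors were an alternative. The software was R 4.3.3 and Python 3.11.15 with pandas 2.3.3, scipy 1.17.1, matplotlib 3.10.9 and numpy 2.4.6. Only the chi-square test and a pair ratio were tried on simulated counts. Those counts held counting noise and set fold changes, without the wider spread seen between these libraries. Named genes are all members, all further ligands, the 4 highest genes of each other list, its genes below 1 CPM where 5 or fewer, the genes of the chosen pairs, the markers, and the 3 genes nearest to the top receptor and ligand. The members and lists were chosen with earlier results of these data known.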

Additional observations from a re-analysis of the deposited data

How the results depend on the processing

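Of 105 alternative pair ratios, 93 kept their direction and side of the threshold, 7 turned and 5 came to pass. The rest of the 130 alternatives were counts. Pairs larger than the spread numbered 12 to 15, and the other counts are given below. The detected members numbered 7 to 8 and the related genes 50 to 52 over CPM thresholds of 0.5 and 2, TMM scaling and leaving out each library. Without length correction Egfr against Erbb2 turned to 0.41 on the log2 scale (from -0.71) and Areg against Ereg to -1.72 (from 0.04), which follows from the different gene lengths, and Hbegf against Areg became 2.81. With the longest transcript Hbegf against Areg was 1.56 and passed. Leaving out 1 library in turn, Hbegf against Areg ranged from 0.53 to 0.98 and Areg against Ereg from -0.14 to 0.41, each passing only without replicate 3, and with replicates 1 and 2 averaged Areg against Ereg was -0.14. Erbb3 against Egf, which rests on 59 and 68 counts, turned to -0.77 with the longest transcript and to -0.44 without length correction. The number of members that varied between libraries ranged from 0 (without replicate 3) to 7 on leaving out 1 library, and was 7 under every scaling and with no count minimum. The shares of all tested genes were 2.01% without replicate 3, 62.8% without replicate 1 and 64.0% without replicate 2. They were 65.7% to 65.9% under the scalings and 50.2% with no count minimum. No paired analysis was possible because the labels give 1 group. Depth limits Erbb3, Egf, Epgn and Erbb4, which had at most 68 counts over the 3 libraries.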

Other observations

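Upstream base composition differed between the genes with a RefSeq window. The 250 bases before the start held 57.2% G and C in Areg (15 CG dinucleotides), 59.6% in Btc (4), 60.8% in Egfr (11), 66.0% in Erbb2 (16) and 69.2% in Tgfa (19), all detected genes. They held 46.8% in Epgn (5), 54.0% in Erbb4 (12) and, at the 2 starts of Egf, 50.4% (0) and 52.0% (15), all genes below 1 CPM. The windows of Erbb2 and Epgn run into the annotated gene, and the second window of Egf lies inside it. The medians over all windows were 52.4% and 6. These values describe the sequence and were not tested against expression, and Hbegf, Ereg and Erbb3 had no window.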
